A study of Cyprinus carpio with 6 samples.

Results

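Calmodulin-dependent protein kinases were described here as the genes whose Gene Ontology annotation in the deposited table holds calmodulin-dependent protein kinase activity. The term was carried by 51 of 53152 genes. By description and KEGG orthology entry, 22 of them are subunits of CaMKII (3 alpha, 3 beta, 7 gamma and 9 delta copies) and 6 are CaMKIV. The other 23 are kinases that act below the MAP kinases (10 MNK, 5 MAPKAPK2, 2 MAPKAPK3 and 2 MAPKAPK5 copies), 3 doublecortin copies and 1 gene described as ppk4-like. Of the 51, 12 are described only as hypothetical protein and were typed by a KEGG entry shared with described members, among them 3 of the 6 CaMKIV copies. The transcript model is annotated as noncoding RNA in 7 of the 51. Among these are LOC109095235 and LOC109047382 (gamma), LOC109085033 (delta), LOC109075602 (CaMKIV) and LOC109086483 (doublecortin). CaMKII and CaMKIV together make 28 of the 51, and the results are given by type. Rows described as CaMKI or as CaM kinase kinase do not carry the term and are treated below with the rest of the pathway. For 2 further rows described as CaMKII beta the annotation text was not used here, so they could not be placed by the term, and their values are given separately.

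Calcium that enters a neuron binds calmodulin, and calcium-loaded calmodulin switches on CaMKII and CaMKIV. CaMKII is a ring-shaped assembly of alpha, beta, gamma and delta subunits that phosphorylates synaptic receptors and scaffolds. In mammals alpha and beta are the main brain forms, and gamma and delta occur in many tissues. CaMKIV acts mostly in the nucleus, where it phosphorylates the transcription factor CREB. It is itself switched on by CaM kinase kinase. Common carp carry an extra round of genome duplication, so most of these genes exist as several copies.

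Brain messenger RNA of common carp (Cyprinus carpio) was sequenced in 6 libraries. The control group (agent: none) has 3 and the lead group 3. The study asked how lead exposure injures the brain. The extraction protocol speaks of an adipose type although the tissue label is brain. Dose, duration, age, sex and strain of the fish are not given in the labels. They do not say whether each library is a separate fish, so p-values measure only the spread between these libraries, which may be technical. In bulk brain RNA, fewer cells of a type and less RNA per cell cannot be told apart.

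Total counts ran from 27841520 to 34848243 per library. As a check of the brain label, 37 listed neuron markers had a summed level of 2604 to 3020 FPKM (fragments scaled to transcript length and library size) in control and 2206 to 2610 in lead libraries. Of the neuron markers 33 were tested, and at an unadjusted p under 0.05 there were 11 lower and 1 higher. Summed astroglial markers were at 4019 to 4576 FPKM in control and 3315 to 4191 in lead libraries, with 6 lower and 0 higher of 13 tested at that p. Myelin markers were at 399.8 to 780.3 and 337.3 to 402.2 FPKM (4 of 11 lower), and microglial markers at 29.5 to 56.3 and 15.1 to 22.0 FPKM (3 of 5 lower). Over all genes the shares at that p were 8.77% lower and 7.54% higher. Of 76 skeletal muscle markers, 47 stayed under 1 FPKM in every library. The highest of the 8 skeletal myosin heavy chain rows was at 0.224 FPKM, and creatine kinase M-type at most at 0.486. Others were present, with maxima of 22.7 FPKM for a slow troponin T (LOC109058799), 15.9 for a fast troponin T (LOC109093830), 13.9 for a titin (LOC109067943) and 13.1 for a calcium ATPase 1 (LOC109092857). Among skeletal muscle markers 1 myoglobin-like gene (LOC109067092), at 839.7 to 1511 FPKM, carried most of the sum. The part of these cell type levels in the kinase results was not tested.

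No member passed a Benjamini-Hochberg adjusted p of 0.05 in edgeR's quasi-likelihood test over 32149 genes, where 0.0124% of all genes were called lower and 0.0467% higher. Of 43 members tested, 17 were lower with lead and 3 higher at an unadjusted p under 0.05, against 8.77% and 7.54% of all genes. The log2 fold change was below 0 in 35 members and above 0 in 8, against 50.8% and 49.2% of all genes. DESeq2 on the same counts called 9 members lower and 1 higher, where it called 2.23% of all genes lower and 1.89% higher. The other 8 members had at most 0.58 FPKM and 30 counts in any library and were not tested. On TMM-scaled counts the groups did not overlap, with lead lower, for 20 tested members, against 12.6% of all genes. They did not overlap with lead higher for 5, against 11.9%. Of these 5, LOC109095235 and LOC109070723 had overlapping groups by FPKM. The median log2 fold change of lead against control was -0.49 over the 43 tested members and -0.01 over all genes tested. The member at 0 counts in all lead libraries leaves the first median where it is when set at its bound. A gene was tested if at least 3 libraries reached 1 FPKM. Through this filter 6 members came in only by their control libraries, with no lead library at 1 FPKM. None came in only by its lead libraries. All 6 are among the 35 below 0 and the 20 without overlap, and they enter the median. LOC109093811 and LOC109065492 of them are also among the 9 DESeq2 calls. Their entry depended on high control levels, so their part in these counts is no independent support. Among the 37 tested members that remain without those 6, 12 were lower at an unadjusted p under 0.05. That count is not free of the filter's selection. It holds LOC109100703, with lead replicates 1 and 2 under 1 FPKM, and LOC109047380, with lead replicates 2 and 3 under 1 FPKM. Both also needed their control libraries to pass.

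**Figure D1:**
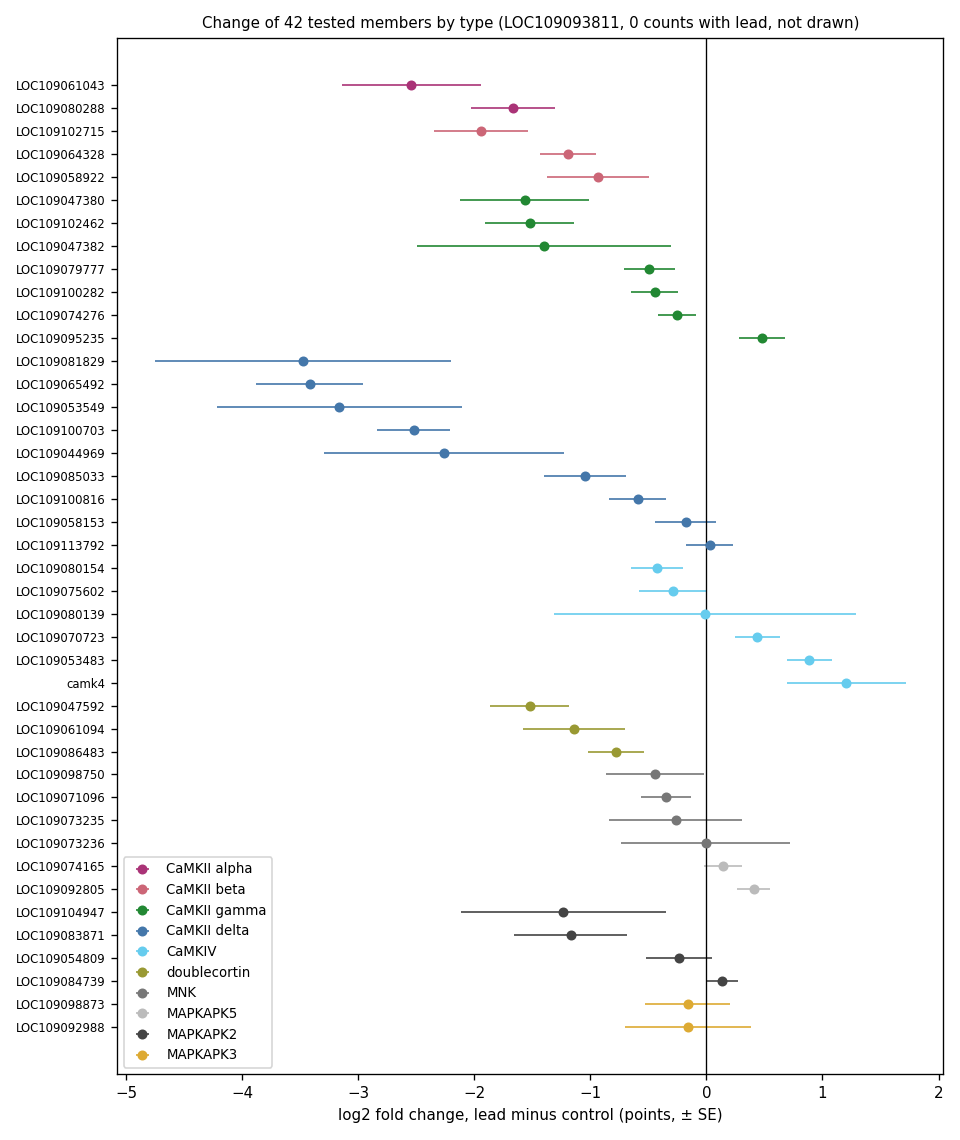
Log2 fold change of lead against control (horizontal axis, points, with bars of ± 1 SE) for 42 tested members, grouped by type and colour. LOC109093811 is not drawn because it had 0 counts in all lead libraries. CaMKII alpha, beta and doublecortin copies lie left of 0, while CaMKIV copies run from -0.43 to 1.21.

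The alpha subunit of CaMKII, the form that dominates at excitatory synapses of the mammalian forebrain, was lower with lead in all 3 copies. LOC109061043, the alpha copy of highest level, was at 53.3, 12.1 and 45.5 FPKM in the control libraries (replicates 1 to 3, in that order throughout) and at 5.24, 3.61 and 8.80 in the lead libraries. Its control replicate 2 lay well below the other control libraries but still above every lead library. The log2 fold change was -2.54 (SE 0.60, edgeR adjusted p = 0.186). In the deposited table it sits on the plus strand of NW_017538161.1, at 663668 to 696917.

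The second alpha copy, LOC109080288, was at 28.0, 12.8 and 26.3 FPKM in control and 5.88, 4.29 and 9.52 in lead libraries. Control replicate 2 was again the lowest control library and the groups did not overlap (log2 fold change -1.66, SE 0.36, edgeR adjusted p = 0.164). Its place is the plus strand of NC_031705.1, at 13576322 to 13610630. DESeq2 called both alpha copies lower (adjusted p = 3.62e-05 and 0.000842).

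The remaining alpha-like gene, LOC109093811, had 52, 46 and 48 counts in the control libraries and 0 in each lead library. It passed the filter only by its control libraries, where it is high, so its p-values are no independent support. Against a floor of 3 counts over the lead group it was at least 42.6-fold lower with lead (edgeR adjusted p = 0.121, DESeq2 adjusted p = 2.59e-05). Its transcript model is short, with a length of about 413 bases implied by counts and FPKM, against about 1457 bases in LOC109061043. Summed over the alpha copies, the level was 62.9 ± 30.3 FPKM (SD, n = 3) in control and 12.4 ± 5.33 (SD, n = 3) in lead libraries, a ratio of means of 5.06.

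**Figure D2:**
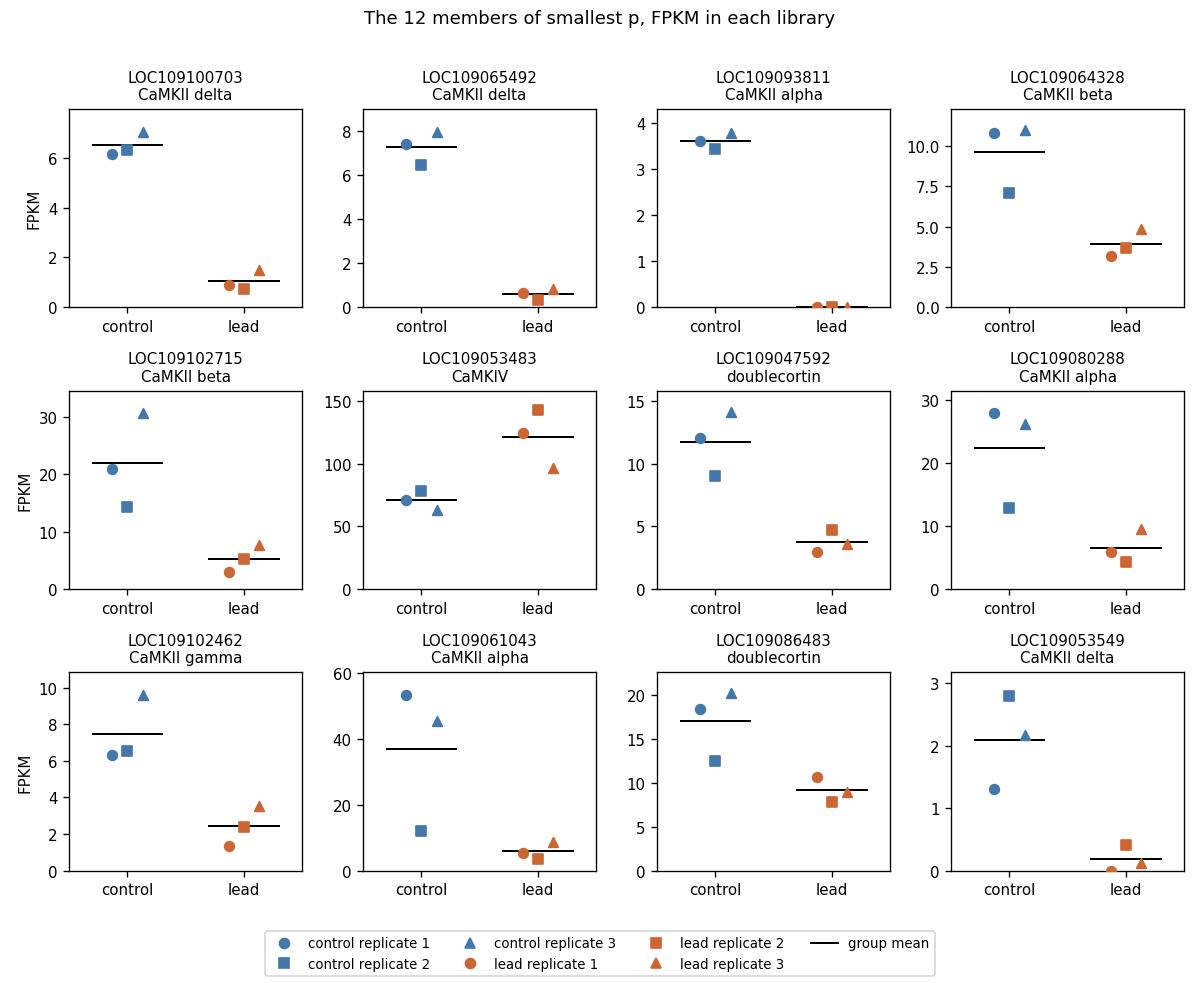
FPKM (vertical axis, from 0) of the 12 members of smallest p in each library, with replicates as circles, squares and triangles and group means as lines. In each panel the control and lead libraries do not overlap, which follows largely from the choice by small p. LOC109093811, LOC109065492 and LOC109053549 passed the filter only by their control libraries. LOC109053483, a CaMKIV gene, is the panel in which lead lies higher.

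The beta subunit, which in mammals ties the kinase to actin, had 3 copies lower with lead, of which 2 had groups apart. Of all genes tested, 12.6% had groups apart with lead lower. LOC109102715 was at 20.9, 14.3 and 30.6 FPKM in control and 2.93, 5.24 and 7.63 in lead libraries (log2 fold change -1.95, SE 0.41, edgeR adjusted p = 0.157). LOC109064328 was at 10.8, 7.11 and 10.99 FPKM in control and 3.21, 3.66 and 4.87 in lead libraries (log2 fold change -1.19, SE 0.24, edgeR adjusted p = 0.157). Every lead library of these copies lay below every control library, and DESeq2 called both (adjusted p = 0.000992 and 0.00255). LOC109058922 stayed between 0.95 and 3.90 FPKM over the 6 libraries, and its groups overlapped. The model of LOC109102715 is short, with about 574 bases implied against about 1800 in LOC109064328. Its control counts were 417, 265 and 543 against 677, 414 and 612, so its higher FPKM rests on that length.

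The beta rows outside the term differed less between the groups than the 3 beta members did. Only LOC109098919 of them was of higher level than every beta member. LOC109098919 was at 32.8, 34.5 and 44.3 FPKM in control and 21.2, 19.7 and 25.9 in lead libraries (log2 fold change -0.64, SE 0.16, edgeR adjusted p = 0.186), with no overlap. LOC109062978 was at 10.7 to 17.2 FPKM in control and 7.73 to 13.9 in lead libraries, and its groups overlapped. Summed beta levels were 34.2 ± 11.3 FPKM in control and 10.4 ± 3.57 in lead libraries for the 3 members, a ratio of 3.28. With both outside rows added they were 86.4 ± 19.6 and 42.8 ± 9.77 FPKM, a ratio of 2.02 (SD, n = 3 each).

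Delta is the most numerous type. Its copies of highest level were LOC109113792 (camk2d2 by RefSeq gene ID), LOC109058153 (camk2d1) and LOC109100816, a delta 2 copy. LOC109113792 was at 42.5, 69.3 and 57.3 FPKM in control and 49.0, 59.6 and 52.0 in lead libraries, so that the lead libraries lay inside the control range. Its log2 fold change was 0.03 (SE 0.21, edgeR adjusted p = 0.958), and the sign turned in 5 of 15 other settings. LOC109058153 ran from 27.7 to 41.96 FPKM in control and 18.9 to 35.1 in lead libraries (log2 fold change -0.18, SE 0.26). LOC109100816 was at 21.8, 35.3 and 38.6 FPKM in control and 15.1, 21.9 and 22.1 in lead libraries, overlapping at control replicate 1 (log2 fold change -0.59, SE 0.25).

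Among the other delta copies, LOC109100703, a delta 1 copy, was at 6.15, 6.30 and 7.04 FPKM in control and 0.902, 0.752 and 1.49 in lead libraries. LOC109065492, also a delta 1 copy, was at 7.39, 6.45 and 7.95 FPKM in control and 0.633, 0.309 and 0.820 in lead libraries. In both, the control libraries lay close together and far above the lead libraries. They ranked 23 and 31 by p among all genes tested. Neither gene ID was matched in RefSeq. Their log2 fold changes were -2.52 (SE 0.31, edgeR adjusted p = 0.0627) and -3.42 (SE 0.46, edgeR adjusted p = 0.0823). LOC109065492 passed the filter only by its control libraries, where it is high, so its rank and p are no independent support. LOC109100703 had lead replicates 1 and 2 under 1 FPKM, so it also needed its control libraries to pass. LOC109100703 sits on the plus strand of NC_031721.1, at 8223287 to 8235219. LOC109065492 sits on the minus strand of NW_017538283.1, at 684328 to 685417, a span of 1090 bases. Its model is short, with about 572 bases implied.

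LOC109053549, another delta 1 copy, was at 1.31, 2.80 and 2.17 FPKM in control and 0, 0.418 and 0.1301 in lead libraries (log2 fold change -3.16, SE 1.06, edgeR adjusted p = 0.230). These levels rest on 22 to 43 counts in each control library and 0 to 6 in each lead library. The copy passed the filter only by its control libraries. The log2 fold change was -4.25 without lead replicate 2 and -2.59 without lead replicate 1. The other low delta copies, LOC109044969, LOC109081829 and LOC109085033, had log2 fold changes from -3.48 to -1.05. Lead was below control in every library, as in 12.6% of all genes tested. Of these, LOC109081829 passed the filter only by its control libraries.

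Gamma copies had a median log2 fold change of -0.49 over 7 copies. LOC109102462 was at 6.34, 6.52 and 9.61 FPKM in control and 1.34, 2.38 and 3.52 in lead libraries, without overlap (log2 fold change -1.52, SE 0.39, edgeR adjusted p = 0.183). The other gamma copies that were lower had log2 fold changes from -1.57 to -0.25, and 2 of these 5 had groups apart, against 12.6% of all genes with lead lower. LOC109047380 and LOC109047382 among them are neighbours on one strand, 23033 bases apart, with short models of about 600 and 550 bases.

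LOC109095235, the gamma-like gene of highest level, was at 89.3, 77.2 and 62.4 FPKM in control and 119, 84.8 and 92.7 in lead libraries. Lead was the higher by FPKM mean, but lead replicate 2 lay below control replicate 1 on that scale. On TMM-scaled counts the groups were apart (log2 fold change 0.48, SE 0.20, edgeR adjusted p = 0.296). Its model is annotated as noncoding RNA and spans 2950 bases, about as long as its implied transcript of 3023 bases. It made up most of the gamma level: the 7 copies summed to 128.2 ± 9.67 FPKM in control and 130.4 ± 21.2 in lead libraries, and without it the other 6 summed to 51.8 ± 9.15 and 31.6 ± 4.32 (SD, n = 3 each).

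**Figure D3:**
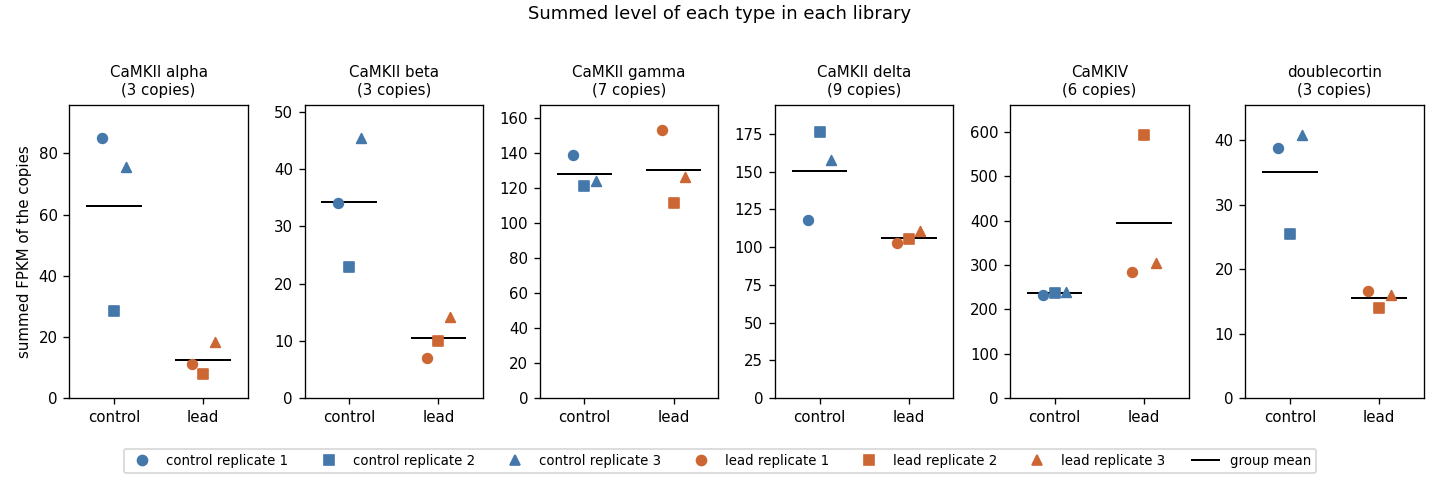
Summed FPKM (vertical axis, from 0) of the member copies of 6 types in each library, with replicates as symbols and group means as lines. Lead libraries lie below control libraries for CaMKII alpha, beta, delta and doublecortin and above them for CaMKIV, where lead replicate 2 reaches 593.9 FPKM.

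All 22 CaMKII copies together summed to 375.9, 348.5 and 403.1 FPKM in control and 274.3, 234.7 and 269.5 in lead libraries. Alpha and beta made up 31.7%, 14.7% and 30.02% of that sum in the control libraries and 6.64%, 7.62% and 12.1% in the lead libraries. Control replicate 2 thus stood nearer to lead replicate 3 than to the other controls. Without LOC109095235 the shares were 41.5%, 18.9% and 35.5% in control and 11.7%, 11.9% and 18.4% in lead libraries, so that control replicate 2 and lead replicate 3 nearly met. Both sets of shares leave out the 2 beta rows outside the term, which in every library held more FPKM than the 3 beta members. With those rows added and LOC109095235 left out, the share in control replicate 2 was below that in lead replicate 3. The separation of the groups by share thus depends on the rows kept. These shares describe the libraries and were not tested.

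**Figure D4:**
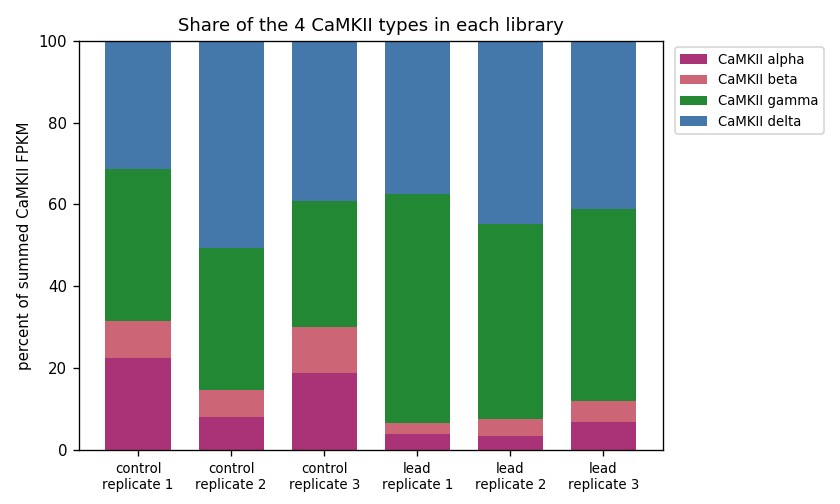
Percent of summed CaMKII FPKM (vertical axis) held by alpha, beta, gamma and delta copies in each of the 6 libraries. Alpha and beta together take 14.7% to 31.7% in control and 6.64% to 12.1% in lead libraries. The beta rows outside the term are left out, and the separation of the groups depends on the rows kept.

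At an unadjusted p under 0.05, 13 of the 22 CaMKII copies lay lower and 1 lay higher, against 8.77% and 7.54% of all genes. The filter let 4 of them in only by their control libraries (LOC109093811, LOC109053549, LOC109065492 and LOC109081829), where they are high, and of the other 18 copies 9 were lower at that p. Among those 9, LOC109100703 and LOC109047380 also needed their control libraries to pass. The 8 CaMKII copies with an implied length under 700 bases had a median log2 fold change of -2.71, and the other 14 had -0.76. All 4 copies let in by control alone are among the 8, and the part of length was not tested. The sources used here do not say how reads shared between near-identical copies were assigned, so the division of reads among copies is uncertain.

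**Figure D5:**
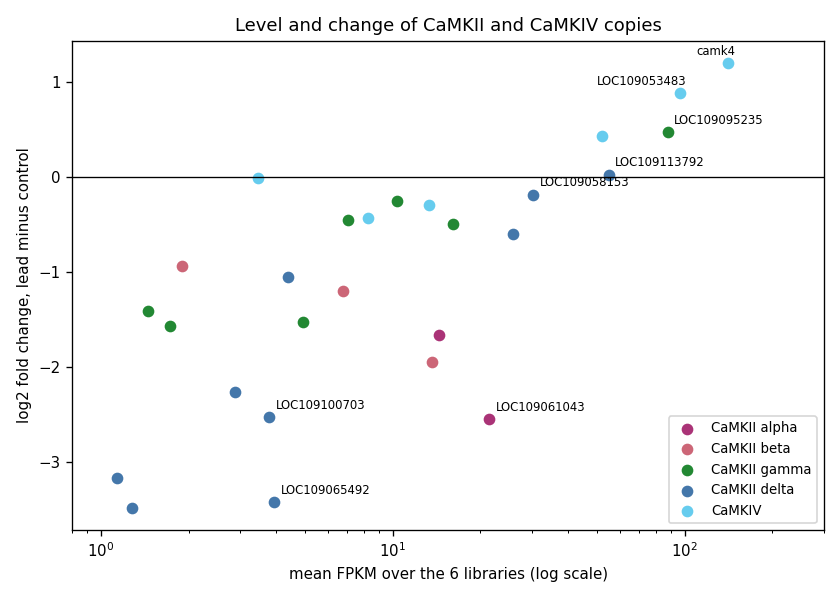
Log2 fold change of lead against control (vertical axis) against mean FPKM over the 6 libraries (horizontal log axis) for 27 CaMKII and CaMKIV copies, coloured by type. The mean includes the lead libraries, so a lower lead level itself moves a point left. camk4 and LOC109053483 stand at the upper right, and the alpha copy LOC109061043 lies at -2.54 with a mean of 21.4 FPKM.

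CaMKIV copies lay on both sides of 0, with log2 fold changes above 0 in the 3 copies of highest level and below 0 in the other 3. LOC109053483, a partial protein placed here by the KEGG entry it shares with camk4, was at 71.0, 78.4 and 63.3 FPKM in control and 125, 143 and 96.97 in lead libraries. All lead libraries were higher than all control libraries (log2 fold change 0.89, SE 0.20, edgeR adjusted p = 0.163), and it was the member that DESeq2 called higher (adjusted p = 0.00256). The difference between this and the CaMKII copies was not itself tested. LOC109053483 sits on the plus strand of NW_017537843.1, at 252192 to 259649.

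The gene named camk4, the member of highest level, was at 89.0, 91.3 and 90.7 FPKM in control and 97.02, 359.6 and 120.7 in lead libraries. Lead replicate 2 stood far above the rest, and the controls lay within 3 FPKM of each other. Its log2 fold change was 1.21 (SE 0.51, edgeR adjusted p = 0.315) and 0.35 without lead replicate 2. LOC109070723, with the same description as LOC109053483, was at 41.7 to 49.8 FPKM in control and 45.9 to 71.2 in lead libraries (log2 fold change 0.44, SE 0.19). Its groups were only just apart on TMM-scaled counts. The copies LOC109075602, LOC109080154 and LOC109080139 were between 0 and 20.9 FPKM, with log2 fold changes of -0.29, -0.43 and -0.01. Of these, LOC109080154 had groups apart with lead lower, at 7.84 to 13.3 FPKM in control and 6.15 to 7.42 in lead libraries. LOC109080139 had 0 counts in lead replicate 1 and 173 in lead replicate 3. Summed CaMKIV levels were 232.2, 236.8 and 238.9 FPKM in control and 283.5, 593.9 and 304.3 in lead libraries.

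Doublecortin, a microtubule-binding protein of migrating and immature neurons, carries the term here although it has no kinase domain. All 3 copies had lead below control in every library, as did 12.6% of all genes tested. LOC109047592 was at 12.03, 9.02 and 14.1 FPKM in control and 2.93, 4.69 and 3.60 in lead libraries (log2 fold change -1.52, SE 0.34, edgeR adjusted p = 0.164, DESeq2 adjusted p = 0.0101). LOC109086483 was at 18.4, 12.5 and 20.3 FPKM in control and 10.7, 7.88 and 8.96 in lead libraries (log2 fold change -0.78, SE 0.24, edgeR adjusted p = 0.216). The model of LOC109086483 is annotated as noncoding RNA in the deposited table, while RefSeq (ASM1834038v1) lists its gene ID as protein-coding. LOC109061094 had a log2 fold change of -1.14 (SE 0.44).

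Of the kinases below the MAP kinases 12 were tested, and at an unadjusted p under 0.05 there was 1 lower and 1 higher. These counts are near the all-gene shares of 8.77% lower and 7.54% higher. MNK, which phosphorylates the cap-binding translation factor eIF4E, had 4 of 10 copies tested and 0 at that p. Its copy of highest level, LOC109071096 (mknk2b by RefSeq gene ID), was at 8.77, 8.86 and 14.1 FPKM in control and 7.01, 7.23 and 8.89 in lead libraries, with overlap. MAPKAPK2, a stress kinase below p38, was led by LOC109084739 at 12.3 to 14.0 FPKM in control and 13.2 to 14.0 in lead libraries (log2 fold change 0.13, SE 0.14). The member lower at that p, LOC109083871, passed the filter only by its control libraries. It was at 1.16 to 1.42 FPKM in control and 0.415 to 0.632 in lead libraries (log2 fold change -1.17, SE 0.49).

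MAPKAPK5 had LOC109092805 at 8.48, 8.80 and 8.77 FPKM in control and 9.74, 10.8 and 11.7 in lead libraries, without overlap (log2 fold change 0.41, SE 0.15, edgeR adjusted p = 0.247). RefSeq lists this gene ID as a pseudogene in the ASM1834038v1 assembly. The same holds for the gamma copy LOC109100282, which was lower with lead, and for the untested MAPKAPK2 copy LOC109058686. LOC109074165, the other MAPKAPK5 copy, was at 6.05 to 7.47 and 6.75 to 7.60 FPKM. Both MAPKAPK3 copies are described as MAP kinase-activated protein kinase 2-like and were typed by their KEGG entry. The leading one, LOC109098873, was at 1.81 to 4.36 FPKM in control and 1.95 to 2.51 in lead libraries. The ppk4-like gene LOC109109511 was at no more than 0.433 FPKM.

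In the lists of other pathway genes below, edgeR called 0 genes over all genes tested, so the counts are at an unadjusted p under 0.05, to be read against 8.77% lower and 7.54% higher over all genes. Gene values are given for the 2 genes of smallest p in each list. Groups apart among them follow largely from that choice and are no separate support. Over all genes 12.6% had groups apart with lead lower and 11.9% with lead higher. All 4 calmodulin genes were tested, with a summed level of 1513 to 1869 FPKM in control and 2039 to 2512 in lead libraries. One of them, LOC109052564, is described as calmodulin-like. At an unadjusted p under 0.05, 2 were higher and 1 lower. LOC109100202 had a log2 fold change of 0.71 (SE 0.19) and LOC109100201 of 0.58 (SE 0.18), with all lead libraries above all control libraries. Their gene IDs are consecutive and their control levels nearly equal, and whether they share reads was not tested. CaM kinase kinases, which switch on CaMKI and CaMKIV, had none of 7 tested genes at that p, and a median log2 fold change of -0.37. LOC109081713 (kinase kinase 1) had -0.43 (SE 0.19) and LOC109054844 (kinase kinase 2) had -0.50 (SE 0.22), both with overlapping groups.

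Calcineurin, the phosphatase that calcium-loaded calmodulin also switches on, had 9 lower and 0 higher of 12 tested subunit genes at that p (median log2 fold change -0.70). Calcipressins, which regulate calcineurin, had 2 lower and 0 higher of 8 tested (median -0.17). The catalytic gamma copy LOC109047393 was at 39.9, 40.3 and 43.7 CPM (a count divided by its TMM-adjusted library total) in control and 25.2, 28.8 and 28.6 in lead libraries. The calcipressin-2 gene LOC109057117 was at 10.8, 12.1 and 12.5 CPM in control and 4.32, 4.60 and 7.38 in lead libraries. Both had groups apart, with edgeR adjusted p = 0.176 and 0.181.

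NMDA receptors and calcium channels admit calcium that activates CaMKII, and AMPA receptors are among its substrates. Of 21 AMPA receptor subunit genes tested 10 (47.6%) were lower and 0 higher at that p (median log2 fold change -0.69). Of 18 NMDA receptor subunit genes 4 (22.2%) were lower and 0 higher (median -0.17). The glutamate receptor 2 gene LOC109046307 had a log2 fold change of -1.43 (SE 0.26), and glutamate receptor 4 (LOC109075307) of -1.13 (SE 0.23). The NMDA receptor genes LOC109093053 (2B) and LOC109045155 (subunit 1) had -0.76 (SE 0.20) and -0.46 (SE 0.14). Each of these 4, picked by small p, had lead below control in every library. For calcium channels of the L, N and P/Q types, 1 of 19 tested (5.26%) was lower at that p, a share below that of all genes. It was the L-type copy LOC109067996 at -1.09 on the log2 scale (SE 0.46), and 0 were higher. The next gene by p, LOC109087149, had 0.45 (SE 0.32).

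A list of calmodulin-binding proteins (neurogranin, neuromodulin, Purkinje cell protein 4 and striatins) had 2 of 12 tested genes lower and 1 higher at that p. The striatin-like LOC109080487 had a log2 fold change of -0.69 (SE 0.25), and the Purkinje cell protein 4 gene LOC109061017 had 0.59 (SE 0.25). Phosphatases and inhibitors of CaM kinases had 1 lower and 1 higher of 10. These were the protein phosphatase 1F gene LOC109090633 (log2 fold change -0.58, SE 0.19) and the CaMKII inhibitor 2 gene LOC109077531 (0.46, SE 0.17).

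Among synaptic scaffolds and substrates 5 of 48 (10.4%) lay lower and 2 (4.17%) higher at that p, shares near or below those of all genes. The smallest p belonged to a SynGAP gene (LOC109101317, log2 fold change -0.69, SE 0.17) and a synapsin-2 gene (LOC109097124, -1.16, SE 0.32). Of 36 genes of the CREB family and its coactivators 1 (2.78%) was lower and 3 (8.33%) higher, again near or below the shares of all genes. The coactivator 1 gene LOC109105452 had -0.85 (SE 0.25), and LOC109095240, a CREB3-like gene, had 0.45 (SE 0.15). Class IIa histone deacetylases, which CaM kinases send out of the nucleus, had 3 of 14 lower and none higher. LOC109059706 (deacetylase 9) had -0.81 (SE 0.16), and LOC109062570 (deacetylase 4) had -0.58 (SE 0.22).

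CaMKI genes, looked at after the term was found to hold none, had 1 of 9 tested lower and 2 higher at that p. The CaMKI delta copy LOC109074574 was at 3.81, 7.09 and 5.67 CPM in control and 1.004, 0.836 and 2.65 in lead libraries (log2 fold change -1.87, SE 0.51, edgeR adjusted p = 0.196). LOC109056464, a CaMKI copy, was at 18.5, 21.1 and 13.8 CPM in control and 26.7, 23.1 and 34.3 in lead libraries (log2 fold change 0.66, SE 0.22, edgeR adjusted p = 0.234). Both had groups apart, in opposite directions. The CaM kinase-like vesicle-associated protein, a relative without kinase activity in mammals, had none of 5 tested genes at that p. Its genes of smallest p, LOC109083952 and LOC109063670, had log2 fold changes of -0.48 (SE 0.26) and -0.26 (SE 0.23).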

How the data were processed

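Messenger RNA of carp brain was measured in 3 control and 3 lead libraries. Per the file headers, the authors deposited whole-number counts per gene, unscaled, and FPKM values per gene. Per the submitters' processing notes, Bowtie 0.12.2, HISAT2 2.0, StringTie 1.3.0 and the mouse build mm8 were named, without roles; gene positions in the deposited table use RefSeq sequence names of carp. Their assembly, and the handling of strand and of reads with several matches, are not given in the sources used.

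Counts were tested with edgeR 4.0.16 in R 4.3.3 (TMM scaling on library totals, quasi-likelihood test, robust, lead against control, all 6 libraries) on 32149 genes with at least 1 FPKM in at least 3 libraries. Adjusted p is Benjamini-Hochberg over all of them, called under 0.05. SE was taken as the log2 fold change divided by the root of F. Summed FPKM, ranges and overlaps describe the libraries. The biological coefficient of variation was 36.6%. The procedure was tested on simulated data. Members and lists were chosen with earlier results of these data known. Named one by one were the 12 members of smallest p, the highest copy of each type, members at 0 in 1 group, and the 2 genes of smallest p in each pathway list. Other genes named were chosen after their values were seen. Gene IDs matched RefSeq (ASM1834038v1) for 25 of 51 members. Of the 12 members of smallest p, those not matched were LOC109100703, LOC109065492, LOC109093811, LOC109102715, LOC109053483, LOC109047592 and LOC109102462. Alternatives were DESeq2 1.42.0, limma 3.58.1 on log2(FPKM + 1) and log2(FPKM + 0.1), other scalings and filters, no robust step, a replicate block, and leaving out each library with the genes tested kept.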

Additional observations from a re-analysis of the deposited data

How the results depend on the processing

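With edgeR no member was called with all 6 libraries and the filter used, and none under 2 other scalings, an FPKM filter of at least 0.1, no robust step, the replicate block or any library left out. DESeq2 called 9 members lower and 1 higher (717 and 607 genes over all). Limma on log2(FPKM + 1) called 3 members lower (7 genes lower and 17 higher over all). With log2(FPKM + 0.1), limma called 1 member lower (3 genes lower and 13 higher over all). EdgeR with no low-value filter called 1 member lower, LOC109100703 (23 genes higher and 7 lower over all). The DESeq2 and limma log2(FPKM + 1) calls include LOC109093811 and LOC109065492, which passed the filter only by their control libraries. The 1 call of limma on log2(FPKM + 0.1) was LOC109065492. Members higher at an unadjusted p under 0.05 numbered 1 with library totals only and 1 with either limma setting. With 1 library left out, 12 to 16 members were lower and 1 to 4 higher at that p, while over all genes 3 to 19 were called higher and 1 to 9 lower. The all-gene counts, higher and lower, were 3 and 1 without lead replicate 2, 9 and 5 without lead replicate 1, 10 and 9 without lead replicate 3, 11 and 2 without control replicate 3, and 19 and 6 without control replicate 2. Members higher numbered 1 without control replicate 3. Of 19 named members fitted, 17 kept their sign in all 15 settings. LOC109113792 turned to -0.07 (library totals), -0.051 and -0.050 (limma with 0.1 and 1 added), -0.14 (without control replicate 1) and -0.08 (without lead replicate 2), and LOC109098873 to 0.32 (without control replicate 1). With 1 library left out they ranged from -0.14 to 0.23 and from -0.40 to 0.32. The cause was not tested. No label says that equal replicate numbers mark paired libraries. Same-numbered libraries had correlations of deviations of 0.137, 0.038 and 0.09. With the replicate block 17 members lay lower and 3 lay higher at that p, and 1 gene higher and 0 lower were called over all genes. Library totals moved the median of all genes to -0.11. Low counts limit the copies of lowest level, such as LOC109053549 with 0 to 6 counts per lead library.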
